A study of Arabidopsis thaliana with 148 samples.

Results

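The 6 genes described here encode the cytosolic class I small heat shock proteins of Arabidopsis thaliana chosen by their locus tags: AT3G46230 (HSP17.4), AT1G53540, AT2G29500 (HSP17.6B-CI), AT1G59860, AT1G07400 and AT5G59720 (HSP18.2). They are 6 of the 38194 genes counted, and all 6 were present in the count table of each experiment and passed the filter on low counts in every fit. The 148 libraries came from seedlings of the line p35S:HF-RPL18, in which a tagged ribosomal protein, RPL18, is driven by the 35S promoter, so heated and control seedlings carry the same transgene. Translating ribosome affinity purification (TRAP) pulls down the tagged ribosomes with their mRNA, and a 35S promoter, although broadly active, need not label all cells equally. All seedlings were at day 13 and had been moved from light and dark cycles to constant light before treatment. In the time course, heated seedlings spent 1 h at 37 °C and were collected at the end of the heat at ZT48, ZT51, ZT54, ZT57, ZT60, ZT63, ZT66 or ZT69, where ZT is zeitgeber time in hours, and control seedlings stayed at 22 °C and were also collected at ZT72. In the recovery experiment, seedlings were heated for 1 h until ZT54, returned to 22 °C and collected 0, 1, 3 and 6 h later, at ZT54, ZT55, ZT57 and ZT60, beside control seedlings kept at 22 °C. Each of the 50 groups is 1 combination of experiment, kind of RNA, time and treatment; 48 had 3 libraries and 2 had 2. The labels do not say that the libraries of a group came from separately grown seedlings, and p-values therefore reflect library-to-library spread, some of it possibly technical.

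Small heat shock proteins are chaperones that work without ATP. They assemble into oligomers, bind proteins that begin to unfold in the heat and hold them in a state from which HSP70 and the disaggregase HSP101 can refold them. Class I is one of the cytosolic classes in plants; other classes act in the cytosol, chloroplasts, mitochondria, endoplasmic reticulum and peroxisomes. Their genes are nearly silent in unstressed leaves and are switched on by heat shock factors, which bind heat shock elements, arrays of the unit GAA and its reverse complement TTC in alternation.

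All 6 genes have 1 exon. Their positions in TAIR10.1, looked up by locus tag in the RefSeq annotation, were chr3:16984118-16984841 on the minus strand for AT3G46230, chr1:19980299-19981199 on the plus strand for AT1G53540, chr2:12633065-12634120 on the minus strand for AT2G29500, chr1:22031343-22032250 on the plus strand for AT1G59860, chr1:2274926-2275783 on the plus strand for AT1G07400 and chr5:24062323-24063300 on the plus strand for AT5G59720. The coding sequences, 462 to 486 bases long, shared 67.67 to 88.05% of their bases pair by pair (median 70.59%), against 41.65 to 55.78% (median 49.5%) between the 6 and 10 other small heat shock protein genes. AT1G59860 and AT1G07400 were the closest pair at 88.05%, followed by AT3G46230 and AT1G53540 at 85.02%. The 60-base coding stretch below is where the 6 can be aligned without gaps and are most alike, with a mean identity of 83.78% between pairs. Capitals mark bases that differ from the most common base at that position. At the 1 position where 2 bases, G and A, were tied, G is also in capitals but is not counted as differing. Bases are given 5′ to 3′ on the coding strand and come from the RefSeq TAIR10.1 genome.
AT3G46230: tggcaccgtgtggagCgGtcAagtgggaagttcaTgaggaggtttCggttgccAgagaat
AT1G53540: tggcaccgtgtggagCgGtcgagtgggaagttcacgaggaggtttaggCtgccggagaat
AT2G29500: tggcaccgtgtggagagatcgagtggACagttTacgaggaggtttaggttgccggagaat
AT1G59860: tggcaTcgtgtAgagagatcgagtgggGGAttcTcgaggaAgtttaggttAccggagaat
AT1G07400: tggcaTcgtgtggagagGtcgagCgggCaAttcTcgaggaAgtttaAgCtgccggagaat
AT5G59720: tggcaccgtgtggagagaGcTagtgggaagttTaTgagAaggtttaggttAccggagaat
AT1G59860 and AT1G07400 differed from the most common base at 8 of the 60 positions each, AT5G59720 at 6, AT3G46230 at 5, AT2G29500 at 3 and AT1G53540 at 2. Even so, no stretch of 50 bases occurred in more than 1 of the 6 transcripts, so a read of that length that matches exactly belongs to a single member. The exception concerns a gene outside the group: AT3G46230 overlaps AT3G46220 and AT3G07365 in the annotation, and 415 of its 675 stretches of 50 bases (61.48%) also lie in these loci. Whether reads were counted by strand is not stated in the labels or files, so counts of AT3G46230 could not be told from those of AT3G07365.

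The promoter window, 250 bases upstream of the annotated RefSeq start, was searched for a pair of units on either strand (GAANNTTC or TTCNNGAA) and for 3 alternating GAA and TTC units each separated by 2 bases, which contain such pairs. A pair was present in 2 of the 6 members and in 5 of the 10 other small heat shock protein genes, against 16.21% of 31345 promoters. The run of 3 units was present in the same 2 members and in none of the 10 others, against 0.3892% of all promoters. TATAAA on the gene's strand was found in 1 member, AT3G46230, at -70 to -65, against 30.88% of promoters. The promoters of AT3G46230 (chr3:16984842-16985091, minus strand) and AT1G53540 (chr1:19980049-19980298, plus strand) are shown for their runs of 3 units, in capitals. Those of AT5G59720 (chr5:24062073-24062322, plus strand) and AT1G59860 (chr1:22031093-22031342, plus strand), with no run in this window, are shown because their transcripts stood at the opposite ends of the group during recovery.
AT3G46230 promoter: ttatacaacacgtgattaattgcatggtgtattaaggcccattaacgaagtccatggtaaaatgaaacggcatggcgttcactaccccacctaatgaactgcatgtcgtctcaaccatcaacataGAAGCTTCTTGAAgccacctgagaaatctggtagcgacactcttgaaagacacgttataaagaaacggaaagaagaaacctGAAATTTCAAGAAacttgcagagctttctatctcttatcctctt
AT1G53540 promoter: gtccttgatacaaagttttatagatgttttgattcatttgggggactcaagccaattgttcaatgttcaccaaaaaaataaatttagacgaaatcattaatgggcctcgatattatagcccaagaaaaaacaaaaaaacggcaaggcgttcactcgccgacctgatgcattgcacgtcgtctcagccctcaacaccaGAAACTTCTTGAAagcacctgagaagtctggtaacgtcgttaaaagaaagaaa
AT5G59720 promoter: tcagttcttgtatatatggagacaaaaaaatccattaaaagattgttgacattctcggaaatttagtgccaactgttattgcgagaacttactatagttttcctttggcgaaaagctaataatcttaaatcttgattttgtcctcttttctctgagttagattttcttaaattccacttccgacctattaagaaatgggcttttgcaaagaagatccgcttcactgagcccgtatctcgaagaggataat
AT1G59860 promoter: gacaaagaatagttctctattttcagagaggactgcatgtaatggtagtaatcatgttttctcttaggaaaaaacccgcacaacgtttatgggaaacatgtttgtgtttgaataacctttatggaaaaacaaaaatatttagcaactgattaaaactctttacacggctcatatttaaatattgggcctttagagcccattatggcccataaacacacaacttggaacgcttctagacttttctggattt
AT3G46230 had runs at -125 to -113 and -44 to -32, and AT1G53540 had 1 at -53 to -41, counted back from the start. The position of the window depends on the annotated start, and the 5′ untranslated regions of the 6 range from 108 to 380 bases in RefSeq. In the 300 bases before the start codon, a pair was present in 6 of 6 members, against 22.92% of 27443 genes, and 3 units in AT3G46230, AT1G53540 and AT5G59720, against 0.7361%. These matches describe letters in a window and are not evidence of binding.

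Levels are given as CPM, the counts of a gene in a library scaled to 1000000 counts. Libraries held 1396305 to 13706459 counts. Log2 fold changes are from edgeR's quasi-likelihood test with Benjamini-Hochberg adjustment over all genes tested, and a gene was called at an adjusted p under 0.05; ± is the standard error unless stated. These fits use TMM scaling (trimmed mean of M values). In the time course its factors were 0.583 to 0.737 in heated and 1.34 to 1.68 in control TRAP libraries, and 0.583 to 0.839 in heated and 1.06 to 1.62 in control total mRNA libraries. With total counts as the only scale, the median mean heat effect over all genes was -1.26 in TRAP mRNA and -1.04 in total mRNA on the log2 scale, against -0.09 and -0.08 with TMM. Fold changes are therefore relative to the bulk of genes, CPM relative to all counts, and shares within the 6 genes do not depend on the scale.

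Of 76 control libraries, 9 stood apart. Each held more HSP101 than any other control of its experiment and kind of RNA. All but 1 of them also held more of the 6 transcripts. In the time course these were replicate 1 at ZT48 and replicate 2 at ZT54, ZT57 and ZT69 of TRAP mRNA (477 to 986 CPM for the sum of the 6), against 26.9 to 79.1 CPM in the other 22 TRAP controls. In total mRNA they were replicates 1 and 3 at ZT48 (343 and 210 CPM) and replicate 2 at ZT54 (2233 CPM), against 23.2 to 236 CPM in the other 23. Replicate 3 at ZT48 is the exception, since its 210 CPM lay below the highest of these. HSP101 stood out in the same libraries, at 51.9 to 81.0 CPM in the 4 TRAP controls against 8.97 to 15.8 CPM in the other TRAP controls, and at 28.5 to 181 CPM in the 3 total mRNA controls against 5.30 to 18.22 CPM in the others. In the recovery experiment, the controls labelled replicate 2 at ZT60 held 6203 CPM in TRAP mRNA and 3437 CPM in total mRNA, 143 and 124 times the lowest library of their groups. HSP18.2 made up 74.6% and 69.1% of the 6 transcripts there, close to the 73.0% and 67.6% in seedlings heated and recovered for 3 h. The cause was not tested. Results that rest on these libraries are given with and without them, a choice made after seeing the data.

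All 6 transcripts rose in heat in both kinds of RNA at every time of day. In the sum over the 6, heated libraries devoted 7.45 to 11.1% of all counts to these transcripts in TRAP mRNA (9.75 ± 0.88%, SD, n = 24) and 4.19 to 7.11% in total mRNA (5.33 ± 0.90%, SD, n = 24). The medians in control libraries were 0.0056% in TRAP mRNA and 0.0075% in total mRNA (n = 26 each). At each of the 8 times, every heated library lay above every control library of that time for every member. This held for 48 of 48 gene and time combinations in each kind of RNA. The share of all genes separated in this way was not counted. The most abundant member, AT1G53540, ranged over 18449, 30406 and 36021 CPM (lowest, median, highest) in heated TRAP libraries, against 2.39, 11.0 and 276 CPM in TRAP controls. In total mRNA it ranged over 11597, 15438 and 23135 CPM in heated libraries, against 4.23, 20.02 and 679 CPM in controls. The least abundant, AT1G59860, ranged over 4542, 5186 and 5940 CPM in heated TRAP libraries, against 0.641, 2.65 and 54.3 CPM in TRAP controls. Over all times, the lowest heated library exceeded the highest control by 64.1- to 83.7-fold in TRAP mRNA and by 13.3- to 18.8-fold in total mRNA, depending on the member.

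**Figure D1:**
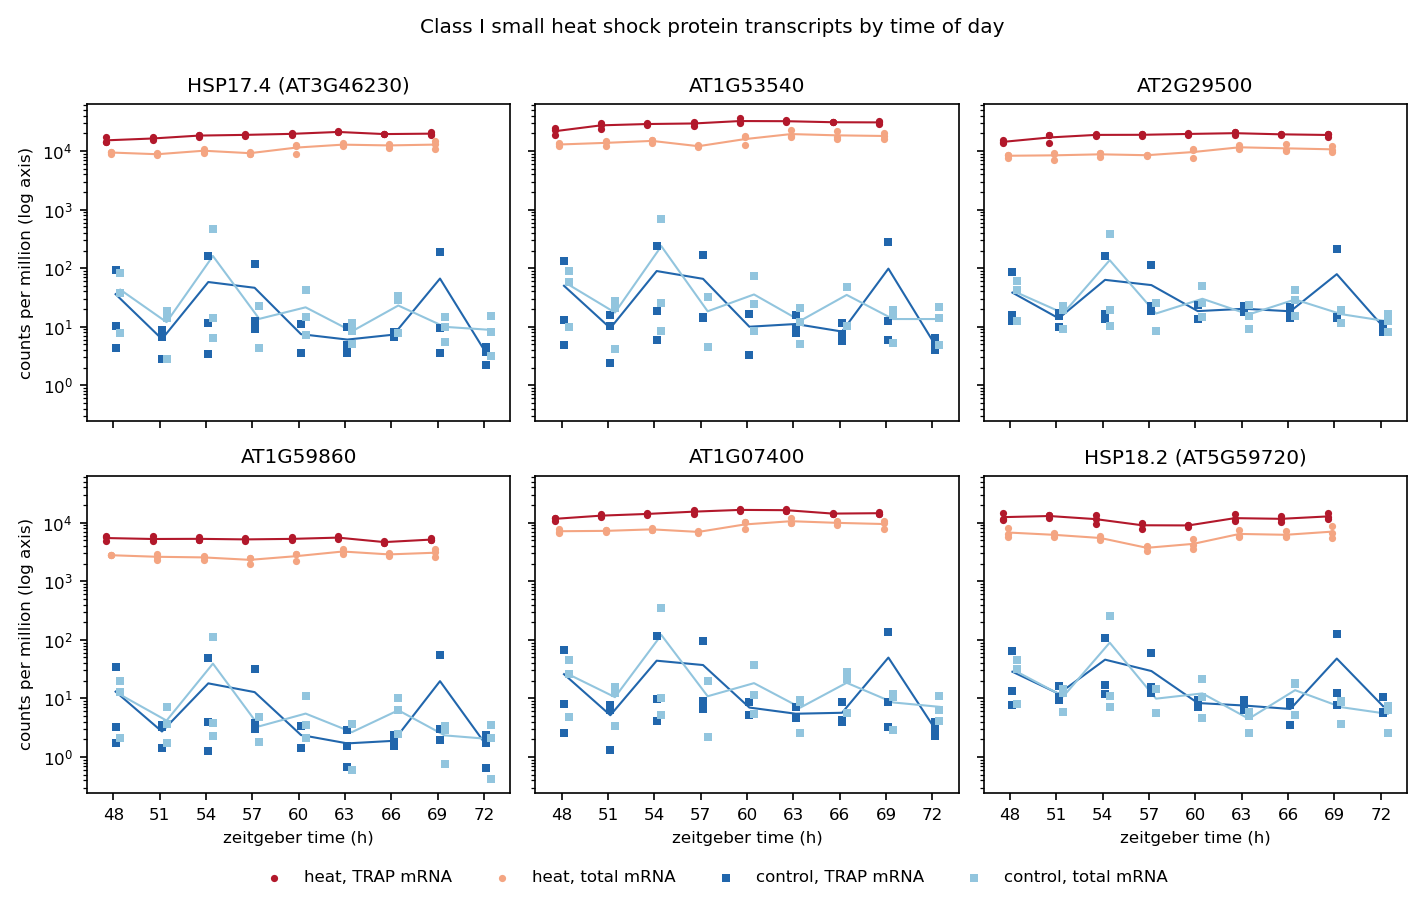
Level of each of the 6 transcripts (CPM, log axis) against zeitgeber time in hours, in heated and control seedlings, for TRAP and total mRNA; points are libraries and lines join group means. The heated libraries sit near the top of each panel at all 8 times (2009.6 to 36021 CPM), and the control libraries that stand apart at ZT48, ZT54, ZT57 and ZT69 rise towards them without reaching them.

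The mean heat effect over the 8 times was called for 6 of 6 members, all higher in heat, in TRAP mRNA (38.1% of 21079 genes were higher) and in total mRNA (36.9% of 21234). It was largest for AT1G53540 in TRAP mRNA, at 11.27 ± 0.57 on the log2 scale (adjusted p = 2.17e-19), and lowest there for AT2G29500, at 10.36 ± 0.44. In total mRNA the 6 lay between 9.40 ± 0.38 (AT2G29500) and 9.95 ± 0.44 (AT3G46230). Members were higher at all 8 times in 6 of 6 cases in both kinds of RNA, against 17.6% of genes in TRAP mRNA and 14.6% in total mRNA. The 7 control libraries of the time course that stand apart lower these values: without them the mean effects were 11.27 (AT2G29500) to 12.65 (AT1G53540) in TRAP mRNA and 10.00 (AT2G29500) to 10.74 (AT3G46230 and AT1G07400) in total mRNA. The effect on single times was larger. At ZT54 in total mRNA the heat effect was 6.926 to 6.997 with control replicate 2, and 10.097 to 10.880 without the libraries that stand apart. With only the groups of that time in the fit, AT3G46230, AT1G53540 and AT1G07400 missed the threshold there (adjusted p 0.0529 to 0.0542, edgeR).

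Most genes known to work with these proteins were also higher in heat. Of 10 other small heat shock protein genes, 9 were higher and 1 lower in TRAP mRNA (median 10.63 on the log2 scale, against 11.04 for the 6 members and -0.09 over all genes), and 10 were higher in total mRNA (median 9.71, against 9.92 for the members and -0.08 over all genes). The exception, AT4G21870, was singled out after its values were seen. It changed by -0.49 ± 0.11 in TRAP mRNA and 0.22 ± 0.08 in total mRNA. Among 12 chaperone genes that act on the clients of small heat shock proteins, 12 were higher in TRAP mRNA (median 4.88) and 11 in total mRNA (median 4.55). HSP101 (AT1G74310) rose by 9.73 ± 0.34 in TRAP mRNA and HSP70-4 (AT3G12580) by 8.58 ± 0.18. Of 11 heat shock factor genes, which encode the activators and repressors of this response, 9 were higher and 1 lower in TRAP mRNA (median 4.56), and 9 were higher and 2 lower in total mRNA (median 4.26, lowest -0.51). HSFA2 (AT2G26150), a heat-induced activator, rose by 10.75 ± 0.40.

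Per kilobase of coding sequence, the members differed in level by more than 5 times after heat. AT1G53540 was highest at 61797 ± 8054 CPM per kb in TRAP mRNA (mean ± SD, n = 24), and above the next member in 24 of 24 libraries. AT2G29500 (39766 ± 4566) and AT3G46230 (39513 ± 4315) followed and did not differ beyond their spread, since AT2G29500 was the higher in 14 of 24 libraries. AT1G07400 (30635 ± 3629), HSP18.2 (23514 ± 3965) and AT1G59860 (11194 ± 867) came next, each below its neighbour in at least 21 of 24 libraries. In total mRNA the order was AT1G53540 (33149 ± 6673 CPM per kb), AT3G46230 (23138 ± 4015), AT2G29500 (20834 ± 3463), AT1G07400 (18054 ± 3352), HSP18.2 (11899 ± 2832) and AT1G59860 (5914 ± 801), each above the next in at least 21 of 24 libraries. The labels do not say whether reads cover whole transcripts or their 3′ ends, and levels between genes depend on that. Annotated transcripts range from 724 bases (AT3G46230) to 1056 bases (AT2G29500) and vary more than the coding sequences. The order per kb of transcript may therefore differ and was not examined. Counts of AT3G46230 also could not be told from those of AT3G07365.

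Time of day was the study's main variable, and HSP18.2 was low around ZT57 and ZT60 after heat. Its heated TRAP libraries held 11030, 11695 and 14631 CPM at ZT48, 7925, 9419 and 9789 CPM at ZT57, 9292, 8551 and 9122 CPM at ZT60, and 11532, 14590 and 12274 CPM at ZT69. Its heated total mRNA libraries held 5774, 6462 and 8179 CPM at ZT48, 3345, 3842 and 3995 CPM at ZT57, 5258, 4188 and 3604 CPM at ZT60, and 5478, 8857 and 6790 CPM at ZT69. The libraries of ZT57 and ZT60 thus lay below all of ZT48 and ZT69 in both kinds of RNA. They did not all lie below those of ZT54, where the lowest library held 9596 CPM in TRAP mRNA and 5019 CPM in total mRNA. The means of ZT57 and ZT60 were the lowest of the heated times. They were 9044 and 8988 CPM in TRAP mRNA, against 11510 CPM at ZT54. In total mRNA they were 3727 and 4350 CPM, against 5482 CPM at ZT54. The other 5 had no such dip in TRAP mRNA: AT1G53540, for example, was lowest at ZT48 (24292, 18449 and 22601 CPM) and high at ZT60 (36021, 30587 and 30925 CPM). In total mRNA ZT57 was low for others too: AT1G53540 (12091 ± 504 CPM), AT1G07400 (6964 ± 273 CPM) and AT1G59860 (2322 ± 271 CPM; SD, n = 3 each) had their lowest heated means there, as HSP18.2 had (3727 ± 340 CPM).

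In the fits with all libraries, the level after heat was called as varying by time of day for 0 of 6 members in TRAP mRNA (50.9% of genes were called) and 0 of 6 in total mRNA (44.7%), with adjusted p of 0.755 or more. None of the 6 had an unadjusted p under 0.05 there with edgeR in either kind (0 of 6), and DESeq2 called 4 of 5 with an adjusted p in TRAP mRNA (45.1% of genes) and 1 of 6 in total mRNA (37.6%). In fits of heated libraries alone, an alternative added after seeing the data, 2 of 6 were called in TRAP mRNA (49.6% of genes), namely HSP18.2 (AT5G59720, adjusted p = 0.000318) and AT1G53540 (adjusted p = 0.0412), and 6 of 6 in total mRNA (43.7%), with adjusted p between 6.58e-07 for AT5G59720 and 0.0169 for AT2G29500. The heat effect itself, heat against the control of the same time, was called as differing between times for 0 of 6 in TRAP mRNA (7.04% of genes; adjusted p 0.205 to 0.454) and 0 of 6 in total mRNA (3.61%; adjusted p 0.1101 to 0.308). The unadjusted edgeR p was under 0.05 for 4 of 6 in TRAP mRNA and 6 of 6 in total mRNA. DESeq2 called 4 of 5 with an adjusted p in TRAP mRNA (10.8% of genes) and 5 of 6 in total mRNA (4.99%), and edgeR with no filter on low counts called 6 of 6 in TRAP mRNA (8.93%) and 6 of 6 in total mRNA (4.51%). Without the control libraries that stand apart, edgeR with the filter on low counts called 0 of 6 in either kind. There the unadjusted edgeR p was under 0.05 for 1 of 6 in TRAP mRNA and 0 of 6 in total mRNA. The share of all genes called in that setting was not counted. The level in control seedlings was called as varying by time for 6 of 6 in TRAP mRNA (52.4% of genes) and 6 of 6 in total mRNA (46.3%). Without the control libraries that stand apart, that became 1 of 6 in TRAP mRNA (42.1%), HSP18.2 with an adjusted p of 0.00954, and 0 of 6 in total mRNA (36.5%), where edgeR gave no unadjusted p under 0.05 either (0 of 6).

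The make-up of the 6 transcripts also varied with time of day. The share of HSP18.2 in their sum was 15.4 ± 2.5% at ZT48, 9.30 ± 0.57% at ZT57, 8.77 ± 0.36% at ZT60 and 12.5 ± 0.98% at ZT69 in heated TRAP libraries, and 14.3 ± 1.6%, 8.71 ± 0.73%, 8.17 ± 0.96% and 11.4 ± 1.1% at the same times in heated total mRNA libraries (mean ± SD, n = 3 each). Permutation tests of the share over the 8 times (100000 resamples, Benjamini-Hochberg adjustment over 24 tests, chosen after seeing the data) gave an adjusted p of 8.9e-04 in TRAP mRNA and 3.4e-04 in total mRNA. AT1G59860 (adjusted p = 2.7e-04 and 0.01676, permutation) had its highest share at ZT48 (6.79% in TRAP mRNA, 5.90% in total mRNA) and its lowest at ZT66 (4.65% and 4.72%). AT1G07400 was also called in both kinds (adjusted p = 0.002174 in TRAP and 0.001395 in total mRNA, permutation), AT1G53540 in TRAP mRNA (0.001088) and not in total mRNA (0.1084), and AT3G46230 and AT2G29500 in neither. Heated total mRNA libraries held 5603720 to 12285764 counts from ZT48 to ZT57 and 1396305 to 7341722 from ZT60 to ZT69, so the tests were repeated within these blocks of 4 times. HSP18.2 was called within both blocks in TRAP mRNA (adjusted p = 0.04539 in each, permutation), and in total mRNA within the first (0.04539) but not the second (0.06922). AT1G07400 was likewise called within both blocks in TRAP mRNA (0.04539 in each) and in neither in total mRNA (0.0760 and 0.0629). AT1G59860 was called in TRAP mRNA within the second block (0.04539) and not the first (0.0629), and in total mRNA in neither (0.431 and 0.0804). AT1G53540 was called in TRAP mRNA within the first block (0.04539) and not the second (0.190), and in total mRNA in neither (0.0629 and 0.966). AT3G46230, not called over the whole day, was called in total mRNA within the first block (0.04539). AT2G29500 was called in no block of either kind.

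**Figure D2:**
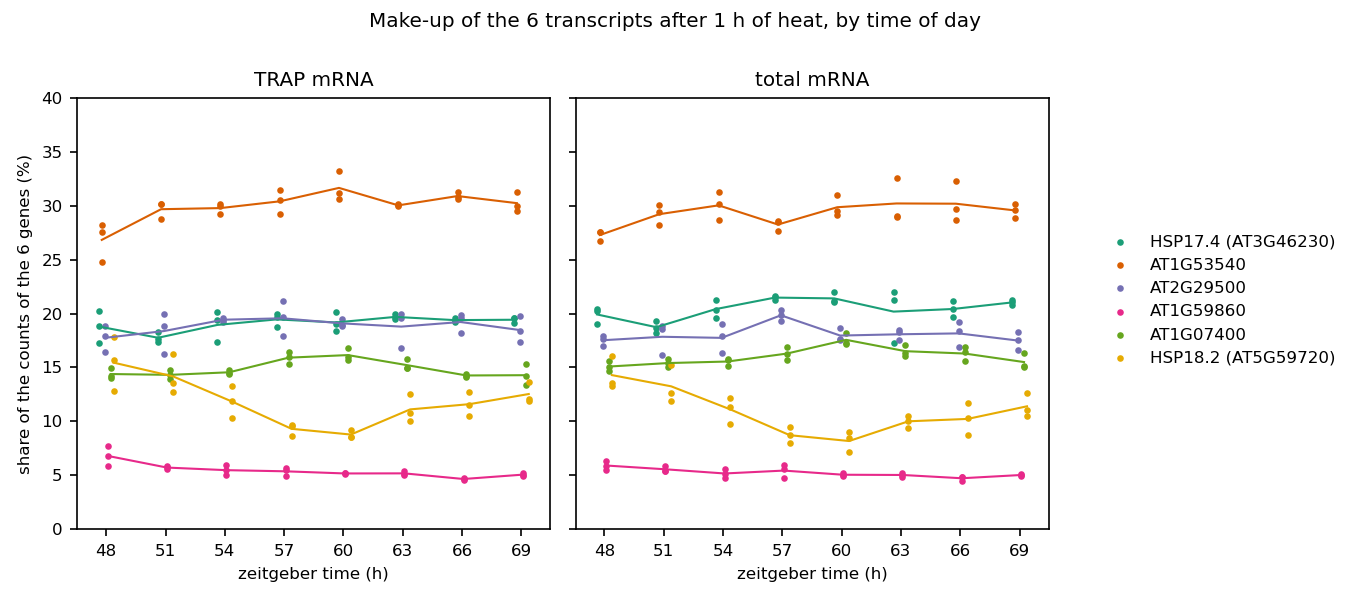
Share of each member in the summed counts of the 6 genes (%) after 1 h of heat, against zeitgeber time in hours, for TRAP mRNA and total mRNA; points are heated libraries (3 per time) and lines join their means. HSP18.2 dips to 9.30 and 8.77% at ZT57 and ZT60 in TRAP mRNA and to 8.71 and 8.17% in total mRNA, while AT1G53540 stays the largest share throughout.

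During recovery the 6 transcripts, which rose together, parted company. Their summed share of all counts in heated seedlings was 8.67, 2.31, 0.514 and 0.205% in TRAP mRNA and 4.05, 1.31, 0.309 and 0.109% in total mRNA at 0, 1, 3 and 6 h (means of 3 libraries). HSP18.2 was the slowest to fall. Its heated TRAP libraries held 14548, 12102 and 12404 CPM at 0 h, 9511, 9325 and 8843 CPM at 1 h, 3754, 4269 and 3238 CPM at 3 h and 1382, 1700 and 1730 CPM at 6 h. Its heated total mRNA libraries held 6230, 5915 and 4445 CPM at 0 h, 4189, 4646 and 4759 CPM at 1 h, 1991, 2610 and 1683 CPM at 3 h and 690, 844 and 902 CPM at 6 h. In TRAP mRNA no library of a later time reached one of an earlier time, and in total mRNA the same held except that 0 h and 1 h overlapped.

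AT1G59860 fell furthest by 1 h and 3 h. In heated TRAP libraries it held 2803, 2580 and 2021 CPM at 0 h, 55.3, 36.7 and 39.9 CPM at 1 h, 2.91, 2.11 and 1.87 CPM at 3 h and 1.39, 2.496 and 1.37 CPM at 6 h. In heated total mRNA libraries it held 1520, 1269 and 842 CPM at 0 h, 26.8, 31.2 and 29.5 CPM at 1 h, 0.696, 1.92 and 0.887 CPM at 3 h and 0.659, 1.21 and 1.17 CPM at 6 h. Its 0 h libraries were far above all later ones, and those of 3 h and 6 h overlapped each other. Its control libraries at 3 h held 0.238 to 0.713 CPM in TRAP mRNA and 0.419 to 0.616 CPM in total mRNA. By 3 h the heated level had thus come near that of controls, which limits how far it could fall. AT1G07400, its closest relative in sequence, fell almost as far: it held 11997, 10831 and 9939 CPM at 0 h and 431, 368 and 366 CPM at 1 h in heated TRAP libraries, and 7409, 6453 and 4466 CPM and 424, 436 and 380 CPM in heated total mRNA libraries.

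AT3G46230, AT1G53540 and AT2G29500 lay between. AT1G53540 held 28046, 28543 and 28098 CPM at 0 h, 7311, 6545 and 5699 CPM at 1 h, 384, 519 and 436 CPM at 3 h and 80.8, 98.1 and 95.4 CPM at 6 h in heated TRAP libraries. AT3G46230 held 16477, 17196 and 17406 CPM at 0 h and 130, 170 and 160 CPM at 6 h there, and AT2G29500 held 15547, 14682 and 14748 CPM and 182, 204 and 196 CPM. As a percentage of the 0 h mean in CPM, what remained at 1 h in TRAP and total mRNA was 70.9 and 81.9% of HSP18.2, 25.5 and 32.1% of AT2G29500, 23.1 and 32.2% of AT1G53540, 17.96 and 23.9% of AT3G46230, 3.56 and 6.77% of AT1G07400, and 1.78 and 2.41% of AT1G59860. On the TMM scale these percentages were lower, at 36.0 and 47.3% for HSP18.2 and 0.904 and 1.40% for AT1G59860, with the same order at both ends. At 6 h, 12.3 and 14.7% of HSP18.2 remained in CPM, against at most 1.30 and 1.77% of any other member (AT2G29500). The least remained of AT1G07400 in TRAP mRNA (0.0413%, against 0.0711% of AT1G59860). In total mRNA the least remained of AT1G59860 (0.0837%, against 0.0994% of AT1G07400). By 6 h both were near control levels. In TRAP mRNA the heated and control medians were 1.39 and 1.82 CPM for AT1G59860, and 4.58 and 6.19 CPM for AT1G07400. In total mRNA they were 1.17 and 1.31 CPM, and 5.65 and 3.92 CPM. These percentages therefore also depend on the control level, and cannot tell which of them fell further by 6 h.

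**Figure D3:**
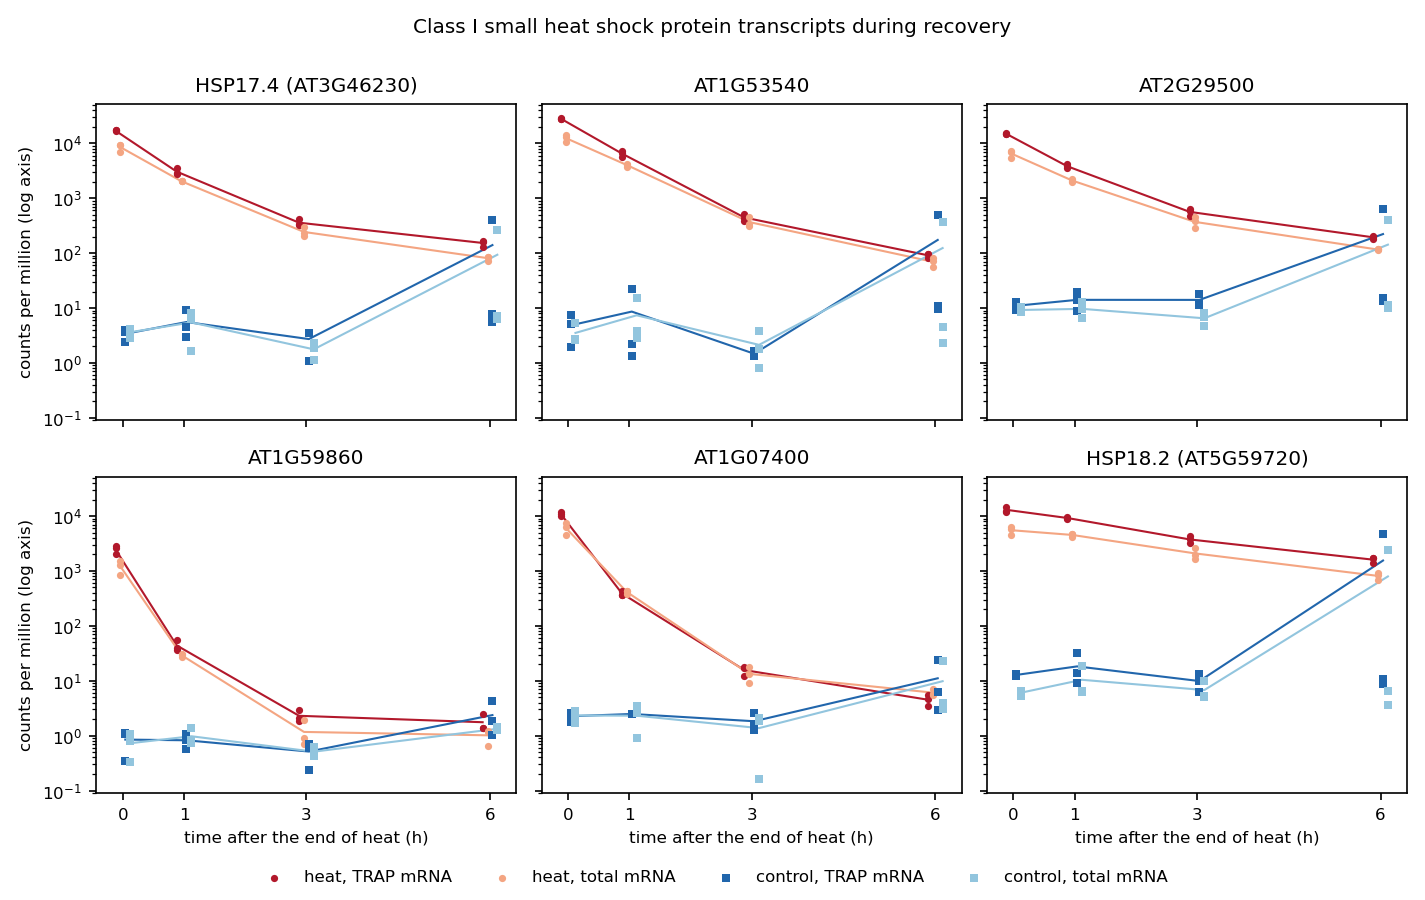
Level of each of the 6 transcripts (CPM, log axis) against hours after the end of heat, in heated and control seedlings, for TRAP and total mRNA; points are libraries and lines join group means. In heated seedlings HSP18.2 descends to 1382 to 1730 CPM in TRAP mRNA at 6 h, while AT1G59860 drops to 36.7 to 55.3 CPM by 1 h. The control libraries of replicate 2 at 6 h lie above the heated ones of that time, at 4625 CPM for HSP18.2 in TRAP mRNA.

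Shares of the sum, which do not depend on the scale, showed the same sorting. HSP18.2 made up 15.004 ± 1.1, 40.1 ± 1.7, 73.0 ± 1.1 and 78.2 ± 0.75% of the 6 transcripts at 0, 1, 3 and 6 h in heated TRAP libraries, and 13.7 ± 0.20, 34.5 ± 1.8, 67.6 ± 0.78 and 74.7 ± 1.3% in heated total mRNA libraries (mean ± SD, n = 3). Over the same times AT1G53540 accounted for 32.6, 28.2, 8.70 and 4.47% in TRAP mRNA, AT1G07400 for 12.6, 1.68, 0.308 and 0.222%, and AT1G59860 for 2.84, 0.190, 0.0450 and 0.0851%. For all 6 members and both kinds of RNA the share changed with recovery time (exact permutation tests over 15400 arrangements of 12 libraries, adjusted p between 1.9e-04 and 0.002338; the smallest unadjusted p possible is 6.5e-05). These tests were chosen after the shares had been seen.

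**Figure D4:**
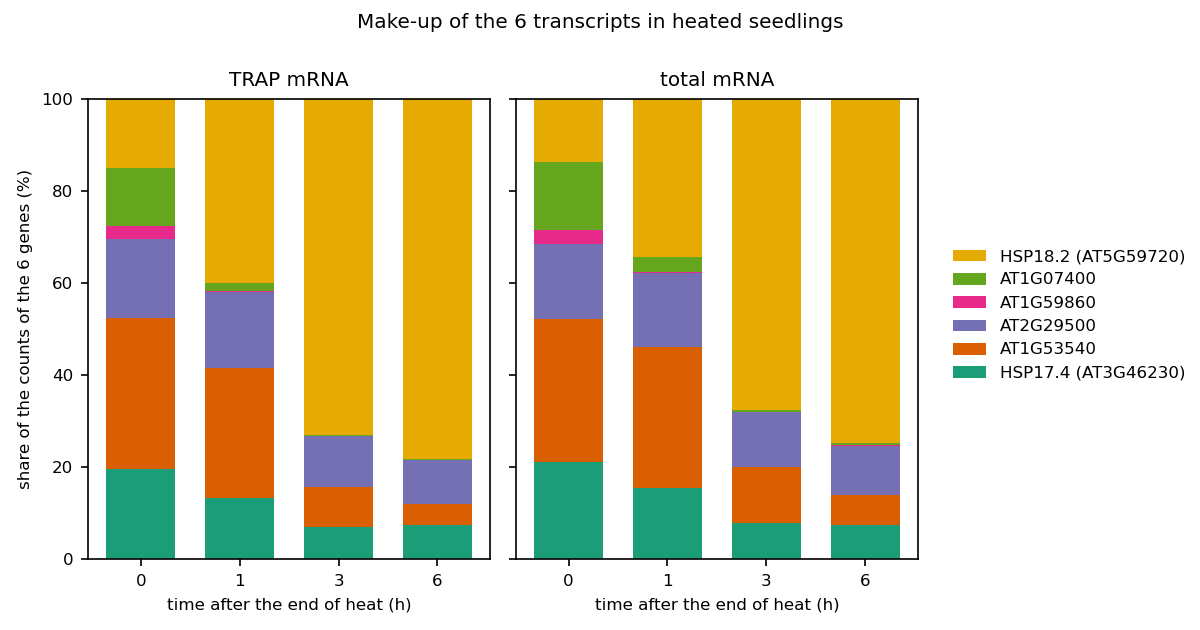
Stacked bars of the mean share (%) of each member in the summed counts of the 6 genes in heated seedlings at 0, 1, 3 and 6 h after heat, for TRAP mRNA and total mRNA (3 libraries per bar). The segment of HSP18.2 grows to 78.2% in TRAP mRNA and 74.7% in total mRNA at 6 h, and those of AT1G07400 and AT1G59860 shrink to under 1% by 3 h.

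Between 1 h and 0 h in heated seedlings, the fits with all libraries called 5 of 6 members lower in TRAP mRNA (26.1% of genes were lower) and 4 of 6 in total mRNA (23.3%). In TRAP mRNA the change was -6.79 ± 0.27 for AT1G59860 and -1.47 ± 1.27 for HSP18.2 on the log2 scale, the member not called (adjusted p = 0.347). In total mRNA HSP18.2 (-1.08 ± 1.19) and AT1G53540 (-2.42 ± 1.00, adjusted p = 0.0579) missed the threshold. Fits of heated libraries alone gave nearly the same sizes with smaller errors and called 6 of 6 lower in TRAP mRNA (31.4% of genes) and 6 of 6 in total mRNA (25.8%). There AT5G59720 changed by -1.48 ± 0.09 in TRAP mRNA (adjusted p = 1.15e-15) and by -1.07 ± 0.14 in total mRNA (adjusted p = 1.85e-08). With total counts as the scale the median over all genes was itself 1.02 higher in TRAP mRNA and 0.82 higher in total mRNA at 1 h than at 0 h. The members' median change of -3.27 in TRAP mRNA and -2.64 in total mRNA was smaller than that of the 10 other small heat shock protein genes, -5.49 and -4.16, and of HSP101, -7.08 and -6.01; the differences were not tested. From 0 h to 6 h, 6 of 6 members were lower in TRAP mRNA (25.5% of genes) and in total mRNA (24.4%), from -4.07 ± 1.41 (HSP18.2) to -12.26 ± 0.60 (AT1G07400) in TRAP mRNA and from -3.66 ± 1.31 (HSP18.2) to -11.06 ± 0.24 (AT1G59860) in total mRNA.

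Against time-matched controls, all 6 were higher at 0 h in TRAP mRNA (24.6% of genes) and total mRNA (22.9%), and still 6 of 6 at 1 h in TRAP mRNA (12.0%) and total mRNA (9.78%). At 3 h, 6 of 6 were higher in TRAP mRNA (2.25% of genes), from 1.96 ± 0.56 for AT1G59860 to 8.48 ± 1.77 for HSP18.2. In total mRNA 4 of 6 were higher at 3 h (0.502%); AT1G59860 (0.95 ± 0.53, adjusted p = 0.579) and AT1G07400 (3.11 ± 0.75, adjusted p = 0.0564) missed the threshold. Leaving out replicate 1 throughout ended all of these 3 h calls in both kinds of RNA. Leaving out replicate 3 ended those in total mRNA. In TRAP mRNA it cut the calls at 0, 1, 3 and 6 h together from 18 to 13 of 24, with 0 of 6 at 6 h both ways. The controls of replicate 2 were still in these fits. The share of all genes called at 3 h in them was not counted. At 6 h, edgeR called 0 of 6 in TRAP mRNA (2.02%) and 0 of 6 in total mRNA (2.28%), with an unadjusted p under 0.05 for 1 and 0 members; DESeq2 called 0 of 4 with an adjusted p in TRAP mRNA (2.27%) and 0 of 6 in total mRNA (1.67%). This turned on the 2 control libraries of replicate 2. For HSP18.2 the heated TRAP libraries at 6 h held 1382, 1700 and 1730 CPM, against 8.56, 4625 and 10.7 CPM in controls, and the heated total mRNA libraries held 690, 844 and 902 CPM, against 3.66, 2374 and 6.36 CPM in controls. Without them, 4 of 6 were higher in TRAP mRNA (5.56% of genes) and 4 of 6 in total mRNA (4.98%). HSP18.2 (AT5G59720) was then higher by 7.31 ± 0.42 in TRAP mRNA (adjusted p = 9.29e-10) and 7.35 ± 0.36 in total mRNA (adjusted p = 2.92e-14), AT3G46230 by 4.47 ± 0.33 and 3.61 ± 0.29, AT2G29500 by 3.70 ± 0.22 and 3.46 ± 0.23, and AT1G53540 by 3.10 ± 0.68 and 4.33 ± 0.55. AT1G59860 (0.24 ± 0.46 and -0.32 ± 0.54) and AT1G07400 (0.02 ± 0.28 and 0.83 ± 0.44) did not pass the test.

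The transcripts were more abundant in TRAP than in total mRNA at the end of heat. The difference in summed share, 4.41 percentage points (9.75% in TRAP and 5.33% in total mRNA), exceeded the spread between libraries, with no TRAP library below the highest total mRNA library (permutation test, two-sided, p = 2.0e-05, the smallest it can give with 100000 resamples). It was 4.51 points over the first 4 times (ZT48 to ZT57) and 4.31 over the last 4 (ZT60 to ZT69), and 4.26 to 4.61 when replicates were left out in turn. The permutation test took TRAP and total mRNA libraries as unpaired, and whether same-numbered ones are paired was not checked. On the TMM scale 6 of 6 members were higher in TRAP mRNA after heat (38.3% of 22256 genes), from 0.72 ± 0.30 for AT1G07400 to 0.95 ± 0.23 for HSP18.2. Leaving out replicate 1 or replicate 3 left 3 of 6 called. Of the 10 other small heat shock protein genes 6 were higher and 1 lower (median 0.60), and the median over all genes was 0.02. In CPM the ratio of TRAP to total mRNA reached 2.44 for AT1G53540 and 2.43 for HSP18.2 at ZT57, and was lowest at 1.44 for AT1G07400 at ZT66. Marker levels moved with these comparisons: a summed set of root markers lay at 3.17 to 7.02 CPM in heated and 10.7 to 23.2 CPM in control TRAP libraries, against 21.8 to 43.1 CPM in heated and 61.6 to 129 CPM in control total mRNA libraries. A summed set of shoot markers lay at 14494 to 32038 CPM in heated and 24215 to 48191 CPM in control TRAP libraries, against 8934 to 18579 CPM in heated and 14146 to 29665 CPM in control total mRNA libraries. Of the 3 shoot markers, AT1G67090 and AT1G29930 had lower medians in heat in both kinds of RNA. AT2G39730 did not follow the sum. Its medians in heated and control libraries were 8559 and 8704 CPM in TRAP mRNA, and 3591 and 3384 CPM in total mRNA. All 4 root markers had counts in every total mRNA library, whereas among the 24 heated TRAP libraries of the time course AT3G62680 was at 0 in 6 and AT1G12560 in 1, and the 3 shoot markers were detected in every library. The part of these in the differences was not tested, and in whole seedlings fewer cells of a type cannot be told apart from less RNA per cell.

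Whether heat changed TRAP mRNA more than total mRNA was tested as an interaction. In the fit with all libraries 3 of 6 were called, all with the larger effect in TRAP mRNA (21.5% of genes): AT3G46230 (1.23 ± 0.49, adjusted p = 0.0429), AT1G53540 (1.35 ± 0.51, adjusted p = 0.0296) and AT2G29500 (0.97 ± 0.37, adjusted p = 0.0318). The other 3 had values of 0.87 to 1.17 with adjusted p of 0.0519 to 0.0739. This result rests on which controls enter. Without the 7 control libraries that stand apart, 6 of 6 were called (17.5% of genes), from 1.03 ± 0.19 for AT5G59720 to 1.93 ± 0.30 for AT1G53540. When the 3 total mRNA controls alone were left out, 0 of 6 were called by edgeR (18.1% of genes; 0 of 6 also at an unadjusted p under 0.05), with values from 0.22 ± 0.34 for AT5G59720 to 0.57 ± 0.48 for AT1G53540.

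In the recovery experiment the members were compared between TRAP and total mRNA at each time. At 0 h, 1 of 6 was called higher in TRAP mRNA in the fit with all libraries (22.4% of genes), AT1G59860 at 0.84 ± 0.18 (adjusted p = 0.00014), and 6 of 6 in the fit of heated libraries alone (27.0%), from 0.66 ± 0.15 for AT1G07400 to 1.04 ± 0.13 for AT5G59720. At 1, 3 and 6 h the fit with all libraries called 0 of 6, with 0 of 6 at an unadjusted edgeR p under 0.05. DESeq2 also called 0 of 6 at each of these times. The share of all genes called at these later times was not counted. Only in the fit of heated libraries alone did AT1G07400 lie lower in TRAP than in total mRNA. Its values there were -0.49 ± 0.15 at 1 h (adjusted p = 0.00671) and -0.78 ± 0.27 at 6 h (adjusted p = 0.0141). AT5G59720 stayed higher in that fit, at 0.64 ± 0.13 and 0.60 ± 0.13. On total counts alone the median of all genes was 0.38 at 1 h and 0.37 at 6 h, so these values are relative to the bulk of genes. In CPM AT1G07400 averaged 388 ± 37 in TRAP and 413 ± 30 in total mRNA at 1 h and 4.51 ± 1.02 in TRAP and 6.07 ± 0.77 in total mRNA at 6 h (SD, n = 3), so the libraries of both kinds were close. The change of the TRAP to total ratio between 0 h and 6 h was called for 0 of 6 with edgeR in the fit with all libraries (1.96% of genes; adjusted p 0.423 to 0.973), with 0 of 6 at an unadjusted p under 0.05 and 0 of 6 called by DESeq2 (2.65%). In the fit of heated libraries alone it was -1.44 ± 0.31 for AT1G07400 (adjusted p = 0.00274), -0.97 ± 0.20 for AT1G53540 (adjusted p = 0.00124) and -0.64 ± 0.17 for AT2G29500 (adjusted p = 0.0164), and did not pass the test for the other members.

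**Figure D5:**
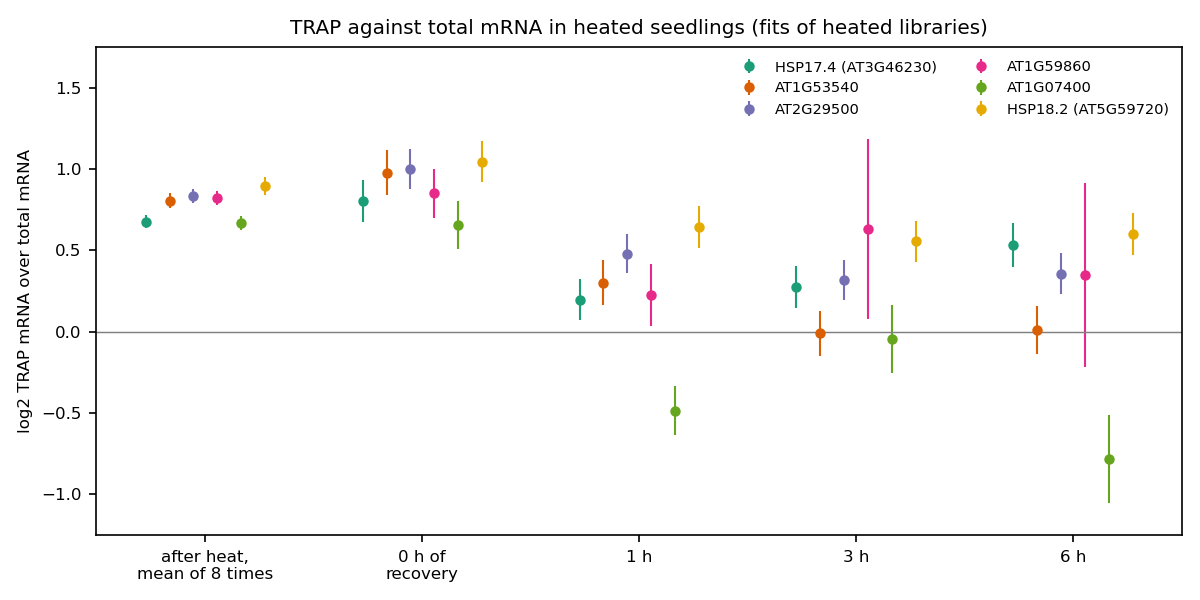
Log2 ratio of TRAP over total mRNA in heated seedlings for each member, after heat in the time course and at 0, 1, 3 and 6 h of recovery, from fits of heated libraries alone; bars are standard errors and the grey line marks equality. At the end of heat all 6 lie above the line (0.67 to 0.90 in the time course), and AT1G07400 lies below it at 1 h (-0.49) and 6 h (-0.78).

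The genes whose pattern over the 16 group means of the recovery experiment was most like the mean of the 6 members were AT5G12030 (HSP17.6A, Pearson r = 0.995), AT5G12020 (HSP17.6II, 0.993), AT3G07365 (0.992), AT4G27670 (HSP21, 0.988) and AT3G09640 (APX2, 0.987), among 18546 genes. HSP17.6A and HSP17.6II are class II small heat shock proteins of the cytosol, HSP21 is the chloroplast form and APX2 is an ascorbate peroxidase. AT3G07365 overlaps AT3G46230. The members themselves ranged from 0.996 (AT2G29500) to 0.920 (AT1G59860), so outside genes were closer to the average of the 6 than AT1G07400 (0.965), HSP18.2 (0.936) and AT1G59860 were. The group means share libraries and depth, and the values are a description.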

How the data were processed

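The authors deposited whole-number counts per gene for each library, in 1 table of the time course and 1 of the recovery experiment, each with total and TRAP mRNA. Per the submitters' processing notes, cutadapt, FastQC and HISAT2 2.2.0 were used with the TAIR10 genome; which counter, annotation and strand option they used is not given in the sources used here. Depth per library was 1396305 to 13706459 counts, which limits the precision of the low control values. Groups were taken from the labels; no column of per-sample values was left unused (0).

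Counts were tested as deposited with edgeR 4.0.16 in R 4.3.3 (filterByExpr with a minimum count of 10 and a minimum total count of 15, TMM scaling, robust quasi-likelihood test, Benjamini-Hochberg adjusted p under 0.05), with 1 fit for each experiment and kind of RNA over all its libraries and 1 fit over both kinds for TRAP against total mRNA. DESeq2 1.42.0, RLE scaling, no filter, a replicate block, fits of only the groups compared, leaving out replicates, total counts only, heated libraries alone and leaving out the control libraries that stand apart were alternatives, the last 3 and some within-block tests added after seeing the data. The code was tested on simulated data. Sequences and positions came from RefSeq TAIR10.1 by locus tag, since the files hold no coordinates. The members, lists and tests were chosen with earlier results of these data known. Named genes are the 6 members, HSFA2, HSP101, HSP70-4 and the 5 outside genes with the highest Pearson correlation, over the 16 recovery group means of log2 CPM, with the mean of the 6, among genes whose mean log2 CPM reached 1.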

Additional observations from a re-analysis of the deposited data

Results flagged for a closer look

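The heat effect in TRAP mRNA minus that in total mRNA, averaged over the 8 times, differed from 0 by the test of the interaction for AT3G46230 (1.23 ± 0.49 on the log2 scale, adjusted p = 0.0429), AT1G53540 (1.35 ± 0.51, adjusted p = 0.0296) and AT2G29500 (0.97 ± 0.37, adjusted p = 0.0318), by edgeR's quasi-likelihood test. These 3 were picked out because the effect of the same treatment was called as different between the kinds of RNA. The other members had values of the same sign and missed the threshold. In the same fit 21.5% of all genes were called in this direction. Leaving out replicate 1 or replicate 3 in the time course ended all 3 calls. Total counts as the only scale gave 0 of 6, as did leaving out only the 3 total mRNA controls that stand apart. Leaving out all time course controls that stand apart gave 6 of 6.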

How the results depend on the processing

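Depth limits the precision of the low values: most control libraries held few reads of most members, while levels after heat rested on far more. Fold changes against controls also moved with single control libraries that held many reads of the members. All 48 tests of the heat effect at each time (8 times, 6 members) and all 6 of the mean heat effect kept their calls in both kinds of RNA when replicates were left out in turn. With only the groups compared in the fit, 45 of the 48 were called in total mRNA, and AT3G46230, AT1G53540 and AT1G07400 at ZT54 were not. Over single members and alternatives, 1357 values were labelled as kept, 140 crossed to significance, 74 lost it and 34 changed sign. Kept means the same direction and the same side of the threshold. Values for which DESeq2 gave no adjusted p were counted as kept by direction alone. The kept values also include shares within the 6 genes in recovery, which have no threshold. Those were counted as kept when leaving out a replicate moved them by less than their SD. No cause of a shift was tested, other than that some alternatives leave out libraries.

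The counts of members called that moved by more than 1.5 times are listed below. The share of all genes called is given above for some of these settings only. It was not set beside the counts out of 24, here or in the next paragraph. Those counts do not show whether the members moved apart from other genes. With no filter on low counts, 1 of 6 members varied with time of day after heat in each kind of RNA (0 in the reported fit). The same setting gave 6 for the heat effect by time in each kind (0 reported) and 6 in the heat effect of TRAP against total mRNA (3 reported). It called 23 of 24 changes between recovery times in total mRNA (15 reported), 13 of 24 comparisons of TRAP with total mRNA in recovery (1 reported), and 1 of 6 changes of that ratio between 0 h and 6 h (0 reported). DESeq2 called 4 members in TRAP and 1 in total mRNA for the level after heat by time, 4 in TRAP and 5 in total mRNA for the heat effect by time, and 6 for the heat effect of TRAP against total mRNA. With only heated libraries in the fit, the level after heat by time gave 2 members in TRAP and 6 in total mRNA, changes between recovery times in total mRNA gave 23, TRAP against total mRNA in recovery 15, and the change of that ratio 3. With only the groups compared, changes between recovery times in total mRNA gave 23. With total counts alone as scaling, the heat effect of TRAP against total mRNA gave 0 and TRAP against total mRNA in recovery 2. The control level by time of day gave 0 members in TRAP mRNA within ZT48 to ZT57 and 0 in total mRNA within ZT60 to ZT69 (6 each over the whole day). Without the control libraries that stand apart it gave 1 in TRAP and 0 in total mRNA; the level after heat by time in TRAP mRNA gave 1, the heat effect of TRAP against total mRNA 6, changes between recovery times in total mRNA 23, TRAP against total mRNA in recovery 12, and the change of that ratio 1. Leaving out only the 3 such total mRNA controls of the time course gave 0 for the heat effect of TRAP against total mRNA.

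Leaving out replicates in turn gave 0 to 6 members for the control level by time in TRAP and 5 to 6 in total mRNA. Of 24 heat effects in recovery it called 12 to 22 in TRAP (18 reported) and 12 to 21 in total mRNA (16 reported). Of 24 changes between recovery times it called 9 to 23 in TRAP (17 reported) and 9 to 22 in total mRNA (15 reported). It gave 3 to 6 members higher in TRAP after heat and 0 to 6 for the heat effect of TRAP against total mRNA. For TRAP against total mRNA in recovery it gave 1 to 9. The share of all genes called was not set beside any of these counts. They do not show whether the members moved apart from other genes.

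The sign changes, in log2 units, lay almost all at 6 h of recovery, where replicate 2 of the control stands apart in both kinds of RNA. The heat effect at 6 h in TRAP mRNA ranged, when replicates were left out in turn, over -0.50 to 4.38 for AT3G46230, -1.55 to 3.04 for AT1G53540, -0.79 to 3.66 for AT2G29500, -1.97 to 0.15 for AT1G07400 and -0.61 to 7.25 for AT5G59720, each highest without replicate 2. AT3G46230 and AT5G59720, above 0 with all libraries, gave -0.36 and -0.48 without replicate 1 and -0.50 and -0.61 without replicate 3. Without that control library, AT1G53540, AT2G29500 and AT1G07400 gave 3.10, 3.70 and 0.019 in TRAP mRNA, and AT1G59860 gave 0.24. In total mRNA the same range was -0.81 to 3.58 for AT3G46230, -1.44 to 4.21 for AT1G53540, -0.92 to 3.45 for AT2G29500, -1.13 to 0.72 for AT1G07400 and -0.64 to 7.32 for AT5G59720, again highest without replicate 2. Without that control library alone it was 3.61, 4.33, 3.46, 0.83 and 7.35 for the same members. With total counts alone it was 0.029 for AT5G59720. The change between 3 h and 6 h in heated total mRNA was -0.42 to 0.14 for AT1G59860, with 0.14 without replicate 2. TRAP against total mRNA at 3 h was 0.027 with no filter, -0.051 to 0.024 when replicates were left out and 0.27 with total counts alone for AT1G53540, and 0.09 without replicate 1, 0.15 without replicate 2, -0.36 without replicate 3 and 0.23 with total counts alone for AT1G07400. At 6 h it was -0.0027 to 0.078 for AT1G53540 when replicates were left out, with -0.0027 without replicate 3.

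Within each kind of RNA, the replicate numbers did not pair heated with control libraries over the whole design. In recovery, 0 of 12 same-numbered pairs in each kind had a correlation of deviations above 0.1. In the time course, 2 of 23 in TRAP and 3 of 23 in total mRNA did. All 5 of these lay at ZT51, where all 3 total mRNA pairs passed (0.142, 0.114 and 0.402) and replicate 3 stood apart in heated and control libraries together. With a replicate block, the heat effect of TRAP against total mRNA gave 4 members against 3, the heat effects in recovery in total mRNA 17 against 16, and the control level by time in TRAP mRNA 5 against 6; the other counts were equal. The block turned the heat effect at 6 h in TRAP mRNA to 0.22 for AT2G29500, and in total mRNA to 0.22 for AT3G46230, 0.13 for AT2G29500 and 0.73 for AT5G59720. Whether same-numbered TRAP and total mRNA libraries are paired was not checked, and the reported tests between the kinds took them as unpaired. Control replicate 1 at ZT48, replicate 2 at ZT54 and recovery replicate 2 at ZT60 stood apart in both kinds. Replicate 2 at ZT57 and ZT69 did so in TRAP mRNA only, and replicate 3 at ZT48 in total mRNA only.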

Other observations

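The end of heat at ZT54 was sampled in both experiments, under the same labels, with libraries of their own. AT1G59860 held 2803, 2580 and 2021 CPM in the recovery experiment's heated TRAP libraries, against 5801, 5067 and 5042 CPM in the time course, and 1520, 1269 and 842 CPM in its heated total mRNA libraries, against 2744, 2633 and 2292 CPM in the time course. The groups did not overlap in either kind of RNA. Nor did they for AT1G07400 (9939 to 11997 CPM in the recovery experiment against 13534 to 14776 CPM in TRAP mRNA, and 4466 to 7409 against 7455 to 8105 CPM in total mRNA). The same held for AT2G29500 (14682 to 15547 against 18288 to 19412 CPM in TRAP mRNA, and 5373 to 7342 against 8024 to 9185 CPM in total mRNA) and for AT3G46230 in total mRNA (6897 to 9381 against 9427 to 10906 CPM). The groups overlapped for AT3G46230 in TRAP mRNA and for AT1G53540 and HSP18.2 in both kinds. HSP18.2 held 14548, 12102 and 12404 CPM against 11622, 9596 and 13313 CPM in TRAP mRNA. Experiment and batch cannot be told apart, and no test was made across them. How many other genes were apart between the experiments at ZT54 was not counted.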
